A study of Mus musculus with 68 samples.

Results

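Papillomas were compared between the 12 mice with the highest and the 12 mice with the lowest mean Krt8 level among 37 FVBBX mice. Krt8 encodes keratin 8, which stratified epidermis does not normally make and which appears in mouse skin tumors as they progress. The 37 mice carried 68 profiled papillomas, and the groups held 22 papillomas each. Mice were ranked by the Krt8 probeset with the highest mean over all arrays, after the log2 values of papillomas from one animal had been averaged. The cutoffs fell where the levels were nearly continuous. The lowest of the Krt8-high mice (mouse 23) stood at 7.71 and the next animal (mouse 11) at 7.70, and the highest of the Krt8-low mice (mouse 26) stood at 6.02 and the next above it (mouse 17) at 6.06. The remaining 13 mice were in neither group.

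FVBBX mice come from crossing SPRET/Ei with FVB/N and mating the hybrids back to FVB/N. All were 8 to 12 weeks old when a single dose of the carcinogen DMBA was put on the shaved back, and all then received the tumor promoter TPA 2 times a week for 20 weeks, so the Krt8-high, middle and Krt8-low mice shared the same treatment and none was untreated. Papillomas, benign tumors of the epidermis, were taken when the animal was killed because of a carcinoma or at the end of the experiment. One Affymetrix mouse array was run per tumor on total RNA, and the values below are RMA levels on the log2 scale, so a difference of 1 means a 2-fold level.

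Keratins are paired filament proteins, and the pair in use tells what kind of epithelium a cell belongs to. Basal epidermal cells make Krt5 and Krt14, cells that leave the basal layer change to Krt1 and Krt10 and build the cornified barrier, and single-layered epithelia of glands and ducts use Krt8 with Krt18, often beside Krt7 and Krt19. In skin carcinogenesis the loss of the late differentiation genes and the gain of simple-epithelium keratins are both known marks of advancing tumors.

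The defining keratins of basal squamous epithelium were high in both groups. Krt14 lay at 14.28 to 14.72 (median 14.66) in Krt8-high mice and 14.58 to 14.81 (median 14.72) in Krt8-low mice, and Krt5 at 13.45 to 14.27 (median 13.92) in Krt8-high mice and 13.72 to 14.15 (median 13.95) in Krt8-low mice. Array medians ran from 5.18 to 5.29, and a level near or under them carries little signal over background. In 8 arrays, from 6 mice, Xist or the Y-linked Eif2s3y did not match the recorded sex. Both genes were high in papilloma 2 of mice 12, 13 and 15 and in the papilloma of mouse 21. Of the 6 mice 1 (35) was Krt8-high and 4 (12, 13, 15 and 21) were Krt8-low. The main counts are therefore also given without these 5 mice, which leaves 11 Krt8-high and 8 Krt8-low mice. RNA quality, read from the log2 ratio of 3′ to 5′ Actb control signal, ran from 0.176 to 0.896 (median 0.636) in Krt8-high mice and from 0.581 to 1.43 (median 0.712) in Krt8-low mice.

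Several traits that the ranking did not use were unevenly split between the groups, although none of 8 passed an adjusted p of 0.05. Of the Krt8-high mice 9 were female and 3 male by label, against 2 female and 10 male Krt8-low mice (Fisher's exact test, two-sided p = 0.0123, adjusted over 8 traits p = 0.0583). The coat was agouti rather than white in 9 of the 12 Krt8-high and 3 of the 12 Krt8-low mice (Fisher's exact test p = 0.0391, adjusted p = 0.0677). Resistant mice, which had 0 or 1 papilloma at 20 weeks, numbered 5 in the Krt8-high and 0 in the Krt8-low group, intermediate mice 6 and 8, and susceptible mice 1 and 4 (Fisher's exact test of the 3 classes p = 0.0423, adjusted p = 0.0677). Papillomas at 20 weeks numbered 2.83 ± 2.86 in Krt8-high and 6.92 ± 4.54 in Krt8-low mice (SD, n = 12 each; range 0 to 10 against 2 to 16; permutation test, two-sided p = 0.0167, adjusted p = 0.0583). Most animals of low tumor number were thus in the Krt8-high group, with overlap between the groups. Mice had lived 272.1 ± 52.3 days in the Krt8-high group (n = 10 with a record, 179 to 343) and 274.7 ± 41.5 days in the Krt8-low group (n = 10, 205 to 324; permutation p = 0.910, adjusted p = 1). The first papilloma appeared after 14.0 ± 6.25 weeks in 10 Krt8-high mice and 12.7 ± 3.11 weeks in 12 Krt8-low mice, and a carcinoma had been profiled from 11 of 12 Krt8-high and 10 of 12 Krt8-low mice, at adjusted p of 0.797 (permutation) and 1 (Fisher's exact test). Since sex, coat and class are unevenly split between the groups, the effect of sex in the fit is given below for the counts and for the leading lists and genes. Sex in the fit is the recorded sex. It was in doubt for mouse 35 of the Krt8-high and mice 12, 13, 15 and 21 of the Krt8-low group, so this fit may not fully account for sex.

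**Figure D1:**
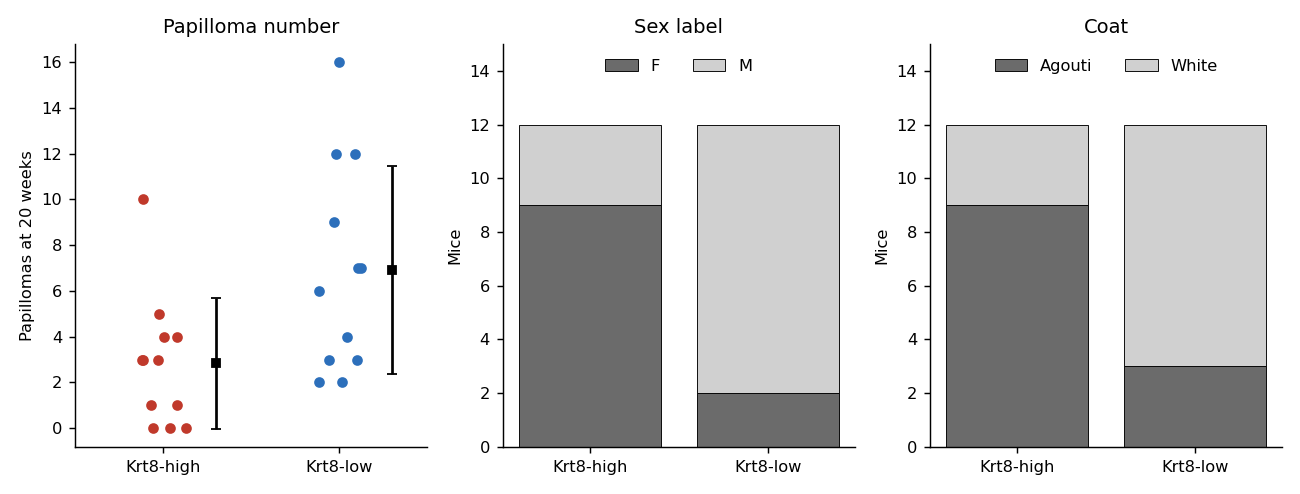
Papillomas per mouse at 20 weeks (left; points are mice, square and bar the mean and SD, n = 12 each), and the number of mice by sex label (middle) and coat (right), in Krt8-high and Krt8-low mice. The Krt8-high group had 2.83 papillomas on average against 6.92 in the Krt8-low group, 9 females against 2, and 9 agouti coats against 3.

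Krt8 and its filament partner Krt18 are neighbours on chromosome 15 and are transcribed from opposite strands, and Krt7 lies in the same keratin cluster. Their start regions are shown because the ranking used Krt8, and Krt18 and Krt7 went with it, and that of Tgm3, the transglutaminase that cross-links the cornified envelope, because it had the largest negative difference among the barrier genes that passed. Each is the RefSeq window from 250 bases before to 50 bases after an annotated start (GRCm38.p6), 5′ to 3′ on the gene's strand, with capitals for a GC box (GGGCGG) or a TATA box (TATAAA), both searched on either strand.
Krt8, chr15:102004293-102004592, minus strand: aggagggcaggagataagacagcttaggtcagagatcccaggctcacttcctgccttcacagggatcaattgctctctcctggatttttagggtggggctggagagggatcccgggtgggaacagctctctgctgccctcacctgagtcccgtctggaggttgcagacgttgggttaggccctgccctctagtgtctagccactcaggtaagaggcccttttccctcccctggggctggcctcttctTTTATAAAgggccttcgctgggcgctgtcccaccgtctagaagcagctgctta
Krt18, chr15:102027966-102028265, plus strand: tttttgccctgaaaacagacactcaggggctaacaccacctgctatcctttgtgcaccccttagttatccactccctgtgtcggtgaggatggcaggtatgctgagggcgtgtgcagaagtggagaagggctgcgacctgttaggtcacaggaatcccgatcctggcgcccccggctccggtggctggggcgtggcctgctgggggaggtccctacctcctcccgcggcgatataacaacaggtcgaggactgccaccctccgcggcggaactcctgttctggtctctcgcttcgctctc
Krt7, chr15:101412153-101412452, plus strand: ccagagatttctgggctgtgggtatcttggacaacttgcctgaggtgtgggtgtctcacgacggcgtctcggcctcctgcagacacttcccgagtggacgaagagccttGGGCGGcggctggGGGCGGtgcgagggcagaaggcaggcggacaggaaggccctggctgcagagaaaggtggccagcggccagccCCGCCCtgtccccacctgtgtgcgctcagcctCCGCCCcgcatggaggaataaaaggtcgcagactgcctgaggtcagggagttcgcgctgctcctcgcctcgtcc
Tgm3, chr2:130012090-130012389, plus strand: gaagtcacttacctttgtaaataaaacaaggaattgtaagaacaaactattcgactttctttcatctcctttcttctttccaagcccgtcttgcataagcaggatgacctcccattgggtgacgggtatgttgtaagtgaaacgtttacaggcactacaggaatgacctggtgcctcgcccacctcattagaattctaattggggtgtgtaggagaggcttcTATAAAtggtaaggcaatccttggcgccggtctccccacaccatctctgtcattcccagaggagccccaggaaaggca
The Krt7 window held 4 GC boxes, the Krt8 window overlapping TATA boxes on the 2 strands, the Tgm3 window 1 TATA box and the Krt18 window neither. An AP-1 site (TGANTCA), the site of the Jun and Fos proteins, was in none of the 4 windows. Over all 32851 windows of the table the GC box was found in 35.7%, the TATA box in 13.6% and the AP-1 site in 7.81%. Among windows of genes that passed the test described below, the AP-1 site was in 6.16% of the 666 windows of genes higher and 7.13% of the 449 windows of genes lower in Krt8-high mice, against 5.82% of the 12896 windows of all tested genes. The GC box was in 63.2% and 63.9% of them, against 60.2% of windows of tested genes, and the TATA box in 10.1% and 6.68%, against 8.10%. No test was made on these shares, and a match of letters is not evidence of binding.

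Krt8 averaged 8.71 ± 0.96 in Krt8-high mice (7.71 to 11.28, median 8.46) and 5.52 ± 0.34 in Krt8-low mice (4.99 to 6.02, median 5.55), a gap that the ranking itself set. The other 2 Krt8 probesets correlated with the first at r = 0.989 and 0.991 over the 68 arrays, and ranking by the second placed 11 of the 12 mice of each group in the same group. A high mean did not stand for 2 high papillomas. In the 10 Krt8-high mice with 2 papillomas these lay apart by 2.97 at the median and by up to 6.18, whereas in the 10 such Krt8-low mice they lay apart by 0.35 at the median and 0.84 at most, which follows in part from the ranking, since a low mean needs 2 low values. In mouse 32 the papillomas stood at 11.13 and 4.95, in mouse 10 at 6.39 and 11.18, in mouse 4 at 10.40 and 6.10 and in mouse 22 at 6.00 and 10.29. Of the 22 papillomas of Krt8-high mice 19 lay above every papilloma of Krt8-low mice.

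**Figure D2:**
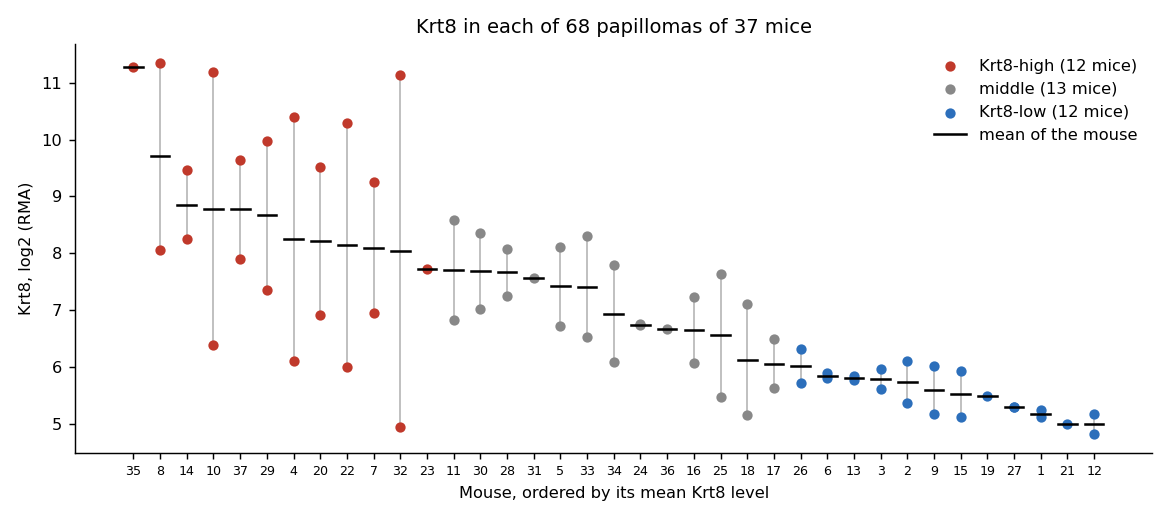
Krt8 level (log2, RMA) in each of the 68 papillomas, with mice on the horizontal axis in the order of their mean (black bar) and a grey line joining papillomas of one mouse. Within several Krt8-high mice one papilloma is high and the other low (11.13 and 4.95 in mouse 32), whereas Krt8-low mice hold papillomas at 6.32 or under.

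Over the 31 mice with 2 papillomas, Krt8 of one papilloma was weakly related to that of the other (r = 0.14, permutation p = 0.466; rho = 0.34, p = 0.0612; r = 0.22 without the 2 mice farthest from the median). Krt7 had the highest values of the 5 genes examined (r = 0.45, permutation p = 0.0104, adjusted over 5 genes p = 0.052; rho = 0.53, adjusted p = 0.0107; r = 0.64 without 2 mice). Krt18 had r = 0.24 and rho = 0.43 (adjusted p = 0.249 and 0.0263), Krt19 r = 0.26 and rho = 0.51 (adjusted p = 0.249 and 0.0107), and Cldn7 r = 0.39 and rho = 0.40 (adjusted p = 0.078 and 0.0335).

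Between Krt8-high and Krt8-low mice, 892 probesets were higher (4.13% of 21578 tested) and 728 were lower (3.37%) at an adjusted p under 0.05 by limma, 7.51% in all. Counted with 1 probeset per gene, 601 of 12604 genes were higher (4.77%) and 483 lower (3.83%), 8.60% in all, and list counts below are to be read against these shares. These probesets were measured on the same arrays as the Krt8 level that set the groups, so the comparison describes which genes went with Krt8. With sex as a covariate 74 probesets were higher and 19 lower (0.343% and 0.0881%, 0.431% in all). In mice labelled female, 9 Krt8-high against 2 Krt8-low, 15 were higher (0.0695%) and 0 lower. In mice labelled male, 3 against 10, 0 passed by limma. At an unadjusted p under 0.05 these fits had 2358 and 2075 probesets. Among the labelled females the sex of mouse 35 (Krt8-high) and mouse 15 (Krt8-low) was in doubt. Among the labelled males that of the Krt8-low mice 12, 13 and 21 was in doubt. With susceptibility class as a covariate, with sex and coat together, or with the 5 mice of uncertain sex left out, 0 passed by limma, while 4122, 2211 and 2270 had an unadjusted p under 0.05. As a slope on Krt8 over all 37 mice, 2498 were higher and 1776 lower with rising Krt8 (11.6% and 8.23%, 19.8% in all). Leaving out 1 of the 24 mice at a time gave 525 to 1328 higher and 374 to 1151 lower, with mouse 35 at the low end of both. The share of calls that were higher was 55.1%, and 40.4% (782 against 1152) when each array was first centred on its own median, so the balance of directions depends on scaling.

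Of 5 tested members of the list of simple-epithelium keratins 3 were higher, and Krt7 had the second largest positive difference of the genes that passed. Krt18, the filament partner of keratin 8, lay at 8.35 to 10.22 (median 9.27) in Krt8-high mice, against 5.51 to 9.34 (median 6.83) in Krt8-low mice, a difference of 2.13 (SE 0.31, adjusted p = 0.00233 by limma). The groups overlapped in part, with 5 Krt8-high mice above every Krt8-low mouse. Krt7, a keratin of ducts and glands, lay at 6.87 to 11.31 (median 9.37) in Krt8-high mice and 4.25 to 9.96 (median 5.50) in Krt8-low mice and differed by 3.31 (SE 0.58, adjusted p = 0.00349). A single Krt8-low male at 9.96 stood clear of the others of its group, the next of which was at 7.02. Krt19, another keratin of simple epithelia, lay at 4.46 to 9.39 (median 7.04) in Krt8-high and 4.00 to 6.06 (median 4.68) in Krt8-low mice, a difference of 2.10 (SE 0.44, adjusted p = 0.0081), and 8 Krt8-high mice were above every Krt8-low mouse. With sex in the fit the differences were 2.20, 3.73 and 1.88 for Krt18, Krt7 and Krt19, with adjusted p of 0.0242, 0.0292 and 0.106, and in the 11 and 8 mice of undoubted sex they were 1.60, 2.69 and 1.68.

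The other tested members of this list did not pass between the groups. Krt80 lay at 9.23 to 10.42 (median 9.83) in Krt8-high and 8.55 to 10.91 (median 10.58) in Krt8-low mice (difference -0.54, adjusted p = 0.0979) and Krt23 at 7.26 to 10.93 (median 8.69) in Krt8-high and 6.18 to 10.83 (median 8.72) in Krt8-low mice (difference -0.08, adjusted p = 0.934). In a list made for keratins of the mouth and other wet epithelia, Krt78 was lower (difference -1.37, SE 0.42, adjusted p = 0.0449 by limma). It passed in 6 of the 24 fits that left out 1 mouse. Krt4, Krt13, Krt15 and Krt76 differed by 0.15, -0.08, 0.00 and -0.74 and did not pass. Membership of a keratin list does not limit a gene to that epithelium. Krt13, a keratin long used as a marker of tumor progression in this model, ranged from 11.32 to 13.93 within the Krt8-high mice and from 6.88 to 13.90 within the Krt8-low mice.

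Genes of glandular and simple epithelium were higher in 5 of 18 tested members and lower in 0, with a median difference of 0.55, against 0.01 over all tested genes. Ltf, which encodes the iron-binding secretory protein lactoferrin, showed the widest gap of any gene that passed. It lay at 9.35 to 13.73 (median 12.08) in Krt8-high mice and 4.72 to 11.82 (median 7.75) in Krt8-low mice, a difference of 3.63 (SE 0.73, adjusted p = 0.00647), with 6 Krt8-high mice above every Krt8-low mouse. Cldn7, a claudin of tight junctions in simple epithelia, lay at 5.49 to 9.00 (median 8.11) in Krt8-high and 4.42 to 7.42 (median 5.39) in Krt8-low mice and differed by 2.30 (SE 0.36, adjusted p = 0.00233), so that 9 of the 12 Krt8-high mice exceeded every Krt8-low mouse. The whey acidic protein family gene Wfdc2 differed by 1.39 (SE 0.35, adjusted p = 0.0185) and the claudin Cldn3 by 1.01 (SE 0.21, adjusted p = 0.00733). Elf3, an epithelial Ets-family transcription factor that was named after its values were seen, was the fifth (0.84, adjusted p = 0.0483, passing in 7 of 24 fits without 1 mouse). With recorded sex in the fit Ltf, Cldn7 and Wfdc2 passed by limma, at 4.49, 2.43 and 1.85 (adjusted p = 0.0292, 0.0292 and 0.041). With the mice of uncertain sex left out, 0 of 21578 probesets passed by limma.

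**Figure D3:**
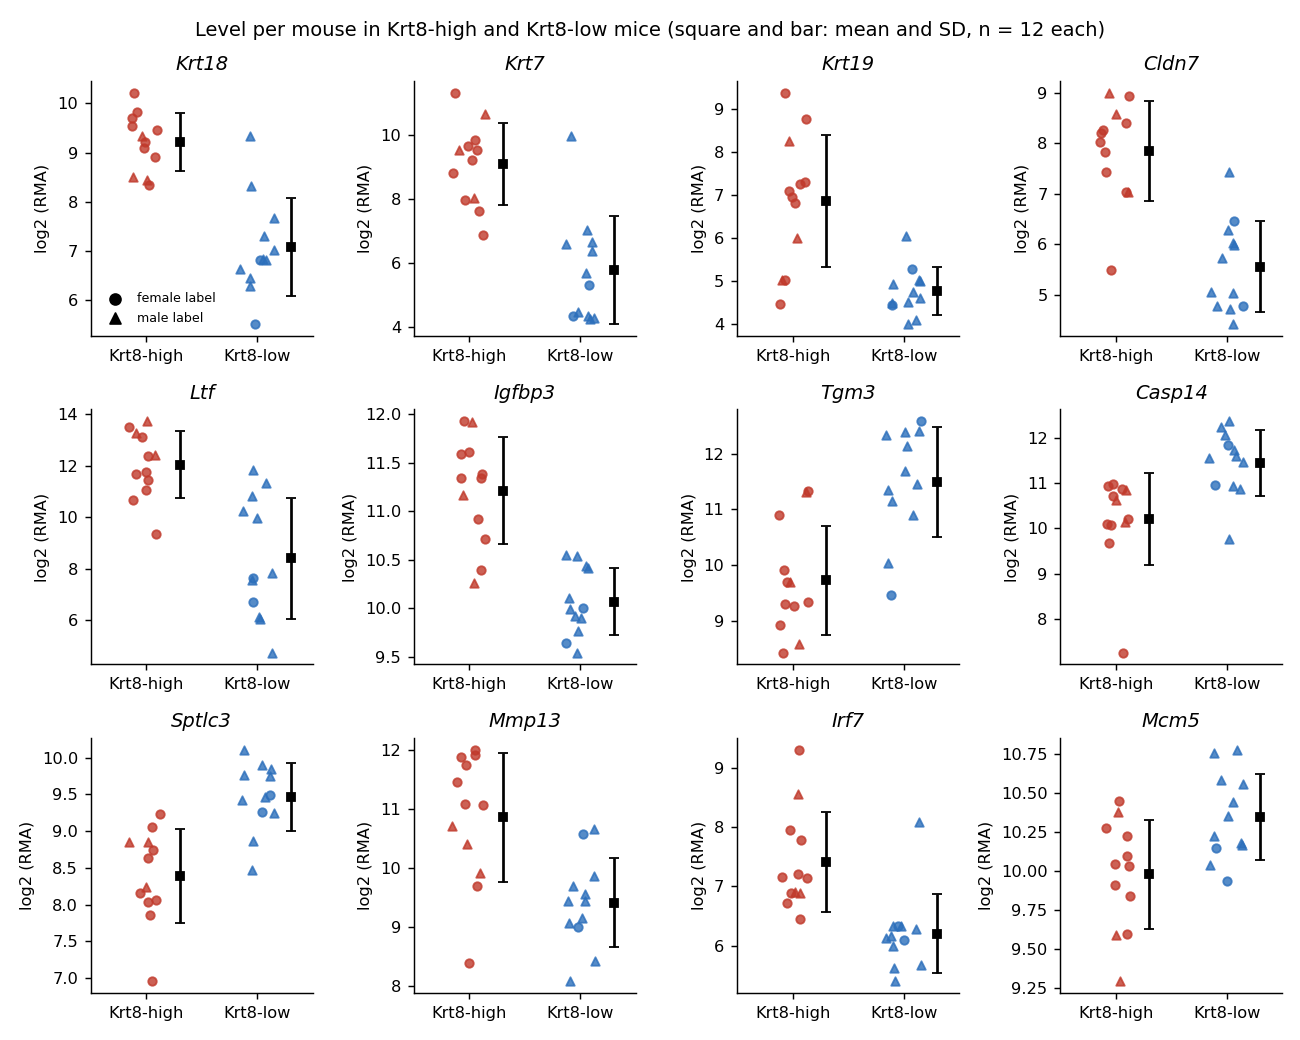
Level per mouse (log2, RMA) of 12 genes in Krt8-high (left, red) and Krt8-low mice (right, blue). Circles are mice labelled female, triangles mice labelled male, and the square with its bar is the group mean and SD (n = 12 each). Krt18, Krt7, Krt19, Cldn7, Ltf, Igfbp3, Mmp13 and Irf7 are higher and Tgm3, Casp14 and Sptlc3 lower in Krt8-high mice, while Mcm5 (adjusted p = 0.0681) did not pass.

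Several other genes were among the 20 of largest positive difference. Ppbp, a platelet and neutrophil-attracting chemokine, lay at 11.57 to 13.72 (median 13.13) in Krt8-high and 6.85 to 13.30 (median 9.67) in Krt8-low mice and differed by 2.69 (SE 0.56, adjusted p = 0.00779). Dynap differed by 2.63 (SE 0.50) and Vnn1, a pantetheinase, by 2.26 (SE 0.44), each with 7 Krt8-high mice above every Krt8-low mouse. Sgms2, a sphingomyelin synthase, differed by 1.57 (SE 0.28), and Pkp2, the desmosomal plakophilin of simple epithelia and heart, by 1.39 (SE 0.27, adjusted p = 0.00584). Within the list of desmosome and tight junction genes Pkp2 was the member that was higher, and Pkp3 (-0.52) and Dsc3 (-0.45), which serve stratified epidermis, were lower, among 15 tested. The lower count was 1 without any one of mice 7, 13, 14, 15 or 35 and 5 without mouse 23 or 27, and with sex in the fit 0 of the list passed in either direction. The C-type lectins Clec4d (1.45) and Clec4e (1.36), both of myeloid cells, and the peptidoglycan-binding Pglyrp1 (1.37) were also in this group.

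The cornified barrier genes that passed were all lower. Of 32 tested members 8 passed, and the median difference was -0.86, with 32 of 32 below 0. With sex in the fit 0 of 32 passed by limma, at a median of -0.77. The number that passed was sensitive to single animals, being 26 without mouse 3 and 3 without mouse 15, with 4, 5 and 4 without mice 21, 29 and 35, while the median stayed between -1.06 and -0.69. In the mice of undoubted sex the median was -0.56. Tgm3 lay at 8.42 to 11.34 (median 9.51) in Krt8-high mice, against 9.46 to 12.59 (median 11.57) in Krt8-low mice, a difference of -1.77 (SE 0.38, adjusted p = 0.00927). The groups overlapped, and 8 Krt8-low mice were above every Krt8-high mouse. Casp14, the caspase that helps process filaggrin in the outer epidermis, lay at 7.26 to 10.98 (median 10.42) in Krt8-high and 9.76 to 12.36 (median 11.58) in Krt8-low mice and differed by -1.24 (SE 0.34, adjusted p = 0.0282), with mouse 32 the lowest at 7.26. Alox12b, the lipoxygenase needed for the lipid envelope, differed by -1.13 (SE 0.30, adjusted p = 0.0263). Hornerin (Hrnr), at 7.12 to 11.77 (median 10.76) in Krt8-high and 7.71 to 13.03 (median 11.93) in Krt8-low mice, had a difference of -1.12 and did not pass (adjusted p = 0.149).

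Lipid enzymes of the outer epidermis were also among the genes that were lower. In the list of epidermal lipid synthesis 4 of 13 members were lower and 0 higher (median -0.25), and 1 was lower with sex in the fit. Smpd3, a neutral sphingomyelinase, lay at 5.83 to 7.96 (median 7.07) in Krt8-high and 6.13 to 8.85 (median 8.30) in Krt8-low mice, a difference of -1.15 (SE 0.28, adjusted p = 0.0166). Cers3, the ceramide synthase of the barrier, differed by -0.65 (adjusted p = 0.00776), with 10 Krt8-low mice above every Krt8-high mouse, and Sqle, a step of cholesterol synthesis, by -0.62 (SE 0.10, adjusted p = 0.00233). Sptlc3, a subunit of the enzyme that starts sphingolipid synthesis, lay at 6.95 to 9.23 (median 8.44) in Krt8-high and 8.48 to 10.11 (median 9.48) in Krt8-low mice (difference -1.08, SE 0.22, adjusted p = 0.00647), and the ceramidase Acer1 differed by -1.07. Among the 20 genes of largest negative difference were also the aldehyde dehydrogenase Aldh3a1 (-1.83), the aldehyde oxidase Aox4 (-1.46), the phospholipase Pla2g4d (-1.28), the sodium channel subunit Scnn1b (-1.15) and the endoribonuclease gene Endou (-1.05). Eif2s3y, on the Y chromosome, headed them at -3.17, and with sex in the fit its difference was -0.79.

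Markers of hyperplastic and wounded epidermis were mixed, with 4 of 13 lower (7 without mouse 4) and 1 higher, and 1 and 0 with sex in the fit. Krt17 lay at 11.74 to 12.79 (median 12.21) in Krt8-high and 12.29 to 13.33 (median 12.90) in Krt8-low mice (difference -0.60, SE 0.14, adjusted p = 0.0116, and -0.73 at 0.0425 with sex in the fit). Sprr2h differed by -0.68, and Krt16 (-0.48) and Sprr1b (-0.45), both named after their values were seen, also passed. The cytokine gene Il1b was the member that was higher (0.93, SE 0.27, adjusted p = 0.0371). It did not pass in 10 of the 24 fits that left out 1 mouse. Basal and hemidesmosome genes had 2 of 13 higher, Lamb3, a chain of laminin-332, by 0.58 and the integrin Itgb1 by 0.44, and a median of 0.06. This share is above that of all genes, but 0 passed with sex in the fit or without any one of mice 8, 9, 12, 13, 21, 22, 29 or 35, and 1 without any one of mice 2, 4, 6, 7, 10 or 26.

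The protease and invasion genes that passed were all higher. Of 17 tested members of the list 8 passed (median 0.53), and 5 passed without any one of mice 7, 9, 13, 15, 21, 22 or 35. With sex in the fit 0 of 17 passed by limma, at a median of 0.47. In the mice of undoubted sex 0 passed, at a median of 0.38. Mmp12, the macrophage elastase, lay at 5.74 to 10.70 (median 8.49) in Krt8-high and 5.41 to 7.76 (median 6.72) in Krt8-low mice, a difference of 1.62 (SE 0.40, adjusted p = 0.0181). Mmp13, a collagenase of invading carcinomas, lay at 8.39 to 12.00 (median 11.07) in Krt8-high and 8.08 to 10.66 (median 9.44) in Krt8-low mice and differed by 1.44 (SE 0.36, adjusted p = 0.0193). Each had 8 Krt8-high mice above every Krt8-low mouse. Timp1, an inhibitor of these enzymes, differed by 1.19 (SE 0.28, adjusted p = 0.0136) and Mmp9, a gelatinase, by 1.09 (SE 0.28, adjusted p = 0.0203). The urokinase gene Plau, the core of this list, differed by 0.25 and did not pass (adjusted p = 0.819).

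In the list of TGF-beta and mesenchymal switch genes 5 of 20 were higher (median 0.42), and 3 without any one of mice 2, 6, 7, 8, 9, 12, 13, 15, 21, 22, 26, 29 or 35. With sex in the fit 0 of 20 passed by limma (median 0.28), and in the mice of undoubted sex the median was 0.24, with 0 past the test. With sex in the fit 0 also passed in the Ras and ERK, follicle, Notch and EGF receptor lists from which genes are named next. Inhba, the subunit of the ligand activin A, lay at 8.03 to 9.76 (median 8.66) in Krt8-high and 6.90 to 8.46 (median 7.51) in Krt8-low mice (difference 1.08, SE 0.19, adjusted p = 0.00349), with 7 Krt8-high mice above every Krt8-low mouse. The transcription factor Twist1 differed by 0.63 (adjusted p = 0.0114) and fibronectin (Fn1) by 0.76 (adjusted p = 0.0449). The chromatin protein gene Hmga2 differed by 0.66 and did not pass (adjusted p = 0.197). Of the feedback genes of the Ras and ERK pathway 3 of 14 were higher, led by the phosphatase Dusp4, at 6.41 to 8.16 (median 7.30) in Krt8-high and 4.83 to 7.37 (median 6.32) in Krt8-low mice (1.14, SE 0.25, adjusted p = 0.0114). Among follicle stem cell genes and regulators Lgr6, a receptor of stem cells above the bulge, differed by 1.13 (SE 0.24, adjusted p = 0.00806) and Sox9 by 0.84 (adjusted p = 0.0102), while Foxn1, a regulator of keratinocyte differentiation, differed by -0.95 (SE 0.21, adjusted p = 0.0112) and Dlx3 by -0.70, so members of 1 list moved both ways. The list had 3 of 16 lower, and 1 without any one of mice 9, 10, 12, 13, 14, 19, 29 or 35. The barrier regulator Grhl3 differed by -0.69 (adjusted p = 0.0123) and the EGF receptor ligand Btc by -0.63 (adjusted p = 0.0166).

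Interferon-induced genes were higher in 7 of 13 tested members, with 13 of 13 above 0 and a median of 0.73. Irf7, a transcription factor of the interferon response, lay at 6.44 to 9.30 (median 7.15) in Krt8-high and 5.40 to 8.09 (median 6.15) in Krt8-low mice, a difference of 1.21 (SE 0.29, adjusted p = 0.0164). Oasl2 differed by 1.26 (SE 0.26, adjusted p = 0.00797) and Ifit1 by 1.05 (SE 0.26, adjusted p = 0.0179), both at levels near the array median. With sex in the fit the list's median was 0.67 and 0 members passed, and in the mice of undoubted sex the median was 0.61 with 0 past the test.

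Markers of myeloid cells, fibroblasts and striated muscle had few calls but mostly positive differences, and in these bulk samples a larger number of cells of a type and more RNA per cell cannot be told apart. Macrophage and Langerhans cell markers had 2 of 16 members higher (Cd14, 0.99, and Arg1, which was named after its values were seen, 0.82) and a median of 0.70, with 1 past the test when any one of mice 6, 7, 10, 12, 13, 15, 21 or 35 was left out, 4 without mouse 27 and 1 with sex in the fit. The log2 of their summed level ran from 14.32 to 15.57 in Krt8-high and from 13.53 to 15.03 in Krt8-low mice. Fibroblast and matrix genes had 1 of 19 higher (Fbln2, 0.69), near the share of all genes, and a median of 0.49, with all 19 differences above 0 and summed levels of 14.80 to 16.48 in Krt8-high and 14.73 to 15.90 in Krt8-low mice. That count was 0 without any one of mice 2, 7, 9, 12, 13, 14, 15, 21, 29 or 35 and with sex in the fit, 2 without any one of mice 10, 19, 23 or 27, and 3 without mouse 32. Neutrophil and CXC chemokine genes had 3 of 14 higher (Ppbp, Clec4e and the chemokine Cxcl3, 1.43), a median of 0.45 and 11 of 14 above 0. Ltf and Pglyrp1, described above and not in that list, are also stored in neutrophil granules. S100a8 and S100a9, which neutrophils and hyperplastic keratinocytes both make, differed by -0.03 and 0.08. Striated muscle genes reached summed levels of 9.39 to 14.25 in Krt8-high and 9.21 to 13.22 in Krt8-low mice. Their median difference was 0.54, with 18 of 18 above 0, and 0 passed by limma at either an adjusted or an unadjusted p under 0.05. Leaving out 1 mouse at a time gave muscle medians of 0.26 to 0.76. In the mice of undoubted sex the muscle median was 0.07, with 13 of 18 above 0. In the mice of undoubted sex the medians were 0.28 for macrophage, 0.27 for fibroblast and 0.20 for neutrophil genes, with 0 past the test by limma. The part of myeloid cells, fibroblasts and muscle in the protease, TGF-beta and interferon results was not tested.

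Several lists had no member past the test by limma. For 23 genes of mitosis and replication the median was 0.06, with 2 at an unadjusted p under 0.05, and for 19 oxidative phosphorylation genes it was -0.05, with 2. The mitosis median was 0.35 in mice labelled female, with 22 of 23 above 0. In mice labelled male it was -0.21, with 20 of 23 below 0. T and NK cell markers (11 tested, median 0.03), MHC genes (12, median 0.04), hypoxia and glycolysis genes (14, median 0.09) and endothelial markers (12, median 0.23) had 0, 0, 2 and 2 members at an unadjusted p under 0.05. The MHC median was also of opposite sign by label, at -0.27 in females and 0.26 in males. These fits hold only 2 Krt8-low females and 3 Krt8-high males. Hair keratins had 1 of 19 lower, Krt84 (-0.60, adjusted p = 0.0303), near the share of all genes. It did not pass without any one of mice 13, 15, 21, 29 or 35, 2 passed without mouse 27, and the list's median was -0.07, but 0.41 with sex in the fit.

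**Figure D4:**
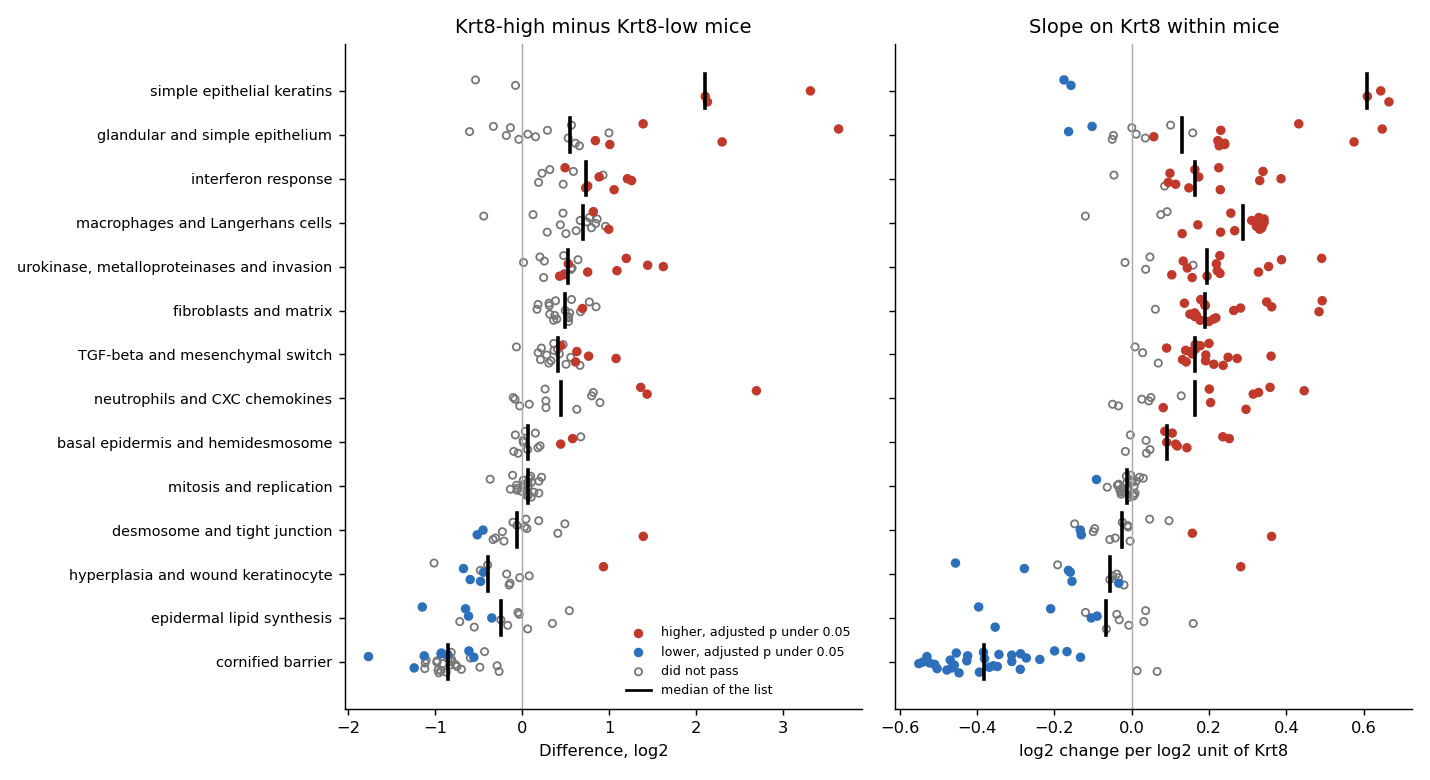
Members of 14 gene lists, each point a gene. The left panel gives the difference in log2 level, Krt8-high minus Krt8-low mice, and the right panel the log2 change per log2 unit of Krt8 between papillomas of one mouse; filled points passed an adjusted p of 0.05 by limma and black bars are list medians. Simple-epithelium keratins have the highest median in the left panel (2.10) and the cornified barrier the lowest (-0.86), and mitosis genes lie around 0 in both.

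Of 8 genes named for papillomas in the work on this cross, 1 passed between the Krt8 groups by limma, against 8.60% of all tested genes. This count takes the probeset of highest mean for each gene, and another Spry2 probeset did pass. Gzme, a granzyme, lay at 3.44 to 8.86 (median 5.73) in Krt8-high and 3.42 to 6.26 (median 4.11) in Krt8-low mice and differed by 1.30 (SE 0.50, adjusted p = 0.103), with the Krt8-low median under every array median. Map2k4, a kinase upstream of JNK, was lower, with a difference of -0.25 (SE 0.08, adjusted p = 0.0471), and passed in 8 of 24 fits without 1 mouse. The cytokine gene Il18 differed by -0.60 (adjusted p = 0.112), the Ras inhibitor Spry2 by 0.27 (0.168), Tslp by -0.66 (0.543), cyclin D1 (Ccnd1) by 0.18 (0.288), Lgr5 by 0.13 (0.789) and Gprc5d by -0.18 (0.686).

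The genes most like Krt8 over all 37 mice, by Pearson's r and as a description, were Krt18 (r = 0.83) and Serpinb9, an inhibitor of granzyme B (r = 0.83), followed by Itpripl2 (0.80), Ppfibp1 (0.79), Anxa3 (0.78), Dusp10 (0.77), Igfbp3 (0.77), Kcnq1 (0.76), Fam102b (0.76) and Gm20559 (0.76). Without the 2 mice farthest from the median of Krt8 these values were between 0.64 (Kcnq1) and 0.80 (Fam102b), with Krt18 at 0.80. At the other end were Pmvk, of the mevalonate pathway (r = -0.79), the kinase Srms (-0.79), Blmh, which degrades filaggrin peptides (-0.78), Ipo13 (-0.76) and Rnf208 (-0.75). Serpinb9 lay at 7.31 to 9.75 (median 8.17) in Krt8-high and 6.09 to 7.51 (median 6.81) in Krt8-low mice, a difference of 1.30 (SE 0.21, adjusted p = 0.00233), and 11 of 12 Krt8-high mice were above every Krt8-low mouse. Igfbp3, which binds insulin-like growth factors, lay at 10.26 to 11.93 (median 11.34) in Krt8-high and 9.54 to 10.55 (median 9.99) in Krt8-low mice (1.15, SE 0.18, adjusted p = 0.00233; 1.17 and 0.0292 with sex in the fit). Where a gene had several tested probesets, its value is that of the one with the highest mean, and another did not pass for Serpinb9, Ppfibp1, Fam102b, Lgr6, Dlx3, Dsc3, Pkp3, Smpd3 and Itgb1, while 1 of 2 Spry2 probesets passed.

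The 13 middle mice, which the group comparison did not use, were examined by the slope of each gene on Krt8 over a range of 6.06 to 7.70. None of 21578 probesets passed by limma (1499 at an unadjusted p under 0.05). The slope had the sign of the group difference for 1515 of the 1620 probesets called between the groups (93.5%), against 15698 of all 21578 (72.8%). Krt18 changed by 0.76 per log2 unit of Krt8 (SE 0.20), Krt19 by 0.99 (SE 0.42), Krt7 by 0.89 (SE 0.64) and Tgm3 by -0.68 (SE 0.29), none of which passed.

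Groups were also set on papilloma 1 alone and compared in papilloma 2, 10 mice against 10, so that the ranking and the values came from different tumors of the same animal. None of 21581 probesets passed (2116 at an unadjusted p under 0.05), and with the papillomas exchanged none passed either (527). Krt18 of the other papilloma differed by 1.17 (SE 0.33) and, with the papillomas exchanged, by 0.85 (SE 0.73), Ltf by 1.52 and 2.10, Cldn7 by 0.48 and 0.95, and Tgm3 by -1.34 and 0.30. The cornified barrier list differed in sign between the directions, with a median of -0.51 and 32 of 32 below 0 in papilloma 2, and a median of 0.42 with 30 of 32 above 0 when the papillomas were exchanged. At this number of animals no difference was detectable in one tumor between mice grouped by Krt8 of the other. Krt8 itself was weakly related between the papillomas of a mouse (r = 0.14, rho = 0.34). The contrast in Krt8 in the tumor tested may therefore have been small.

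The 31 pairs allowed a comparison inside the animal, where both papillomas carry the same record of sex, coat, class and start cohort. In mouse 15, however, Xist stood at 6.61 in one papilloma and 10.03 in the other. It stood at 6.72 and 9.06 in mouse 12 and at 6.78 and 8.31 in mouse 13. Whether the papillomas of such a pair come from 1 animal was not tested. The slope of each gene on Krt8 between papillomas of one mouse was fitted by limma with the mouse as a block; this fit was added after the group results had been seen. It called 4001 probesets higher (18.5% of 21578) and 2734 lower (12.7%, 31.2% in all) with rising Krt8, and 2470 and 1708 (11.4% and 7.92%, 19.4% in all) without mouse 32, whose papillomas differ most in Krt8. Its Actb ratio was -0.24 in the papilloma of higher Krt8 and 0.59 in the other, a smaller gap than in mice 37 and 2. With the Actb ratio in the fit the counts were 4163 and 2841, and in the 27 mice whose recorded sex was not in doubt they were 3985 and 2689 (18.5% and 12.5%, 30.9% in all). Krt18 changed by 0.67 per log2 unit of Krt8 (SE 0.07, adjusted p = 7.69e-07), and it was higher in the papilloma of higher Krt8 in 28 of 31 mice. Krt7 changed by 0.64 (SE 0.13, 22 of 31), Krt19 by 0.61 (SE 0.12, 23 of 31) and Cldn7 by 0.57 (SE 0.07, 24 of 31). Dusp4 went with Krt8 in 28 of 31 mice (0.29, SE 0.03) and Serpinb9 in 26 (0.34, SE 0.04). Without mouse 32 the slopes of these 6 genes were 0.58, 0.41, 0.38, 0.51, 0.28 and 0.26. Krt80 went the other way from its list, at -0.17 per unit of Krt8 (SE 0.03, adjusted p = 6.16e-05), lower in 20 of 31 mice, as did Krt23 at -0.16 (adjusted p = 0.0254, and 0.166 without mouse 32).

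Counted with 1 probeset per gene, the slope between papillomas called 2621 of 12604 genes higher and 1702 lower. Without mouse 32 it called 1652 and 1089. List counts for this slope are to be read against these. Most cornified barrier genes fell with rising Krt8 inside a mouse. Of 32 members 30 were lower and 0 higher, with a median slope of -0.38, and 26 were lower without mouse 32, at a median of -0.24; the mean of the list was lower in the papilloma of higher Krt8 in 23 of 31 mice. Tgm3 changed by -0.53 per unit of Krt8 (SE 0.10, adjusted p = 0.000126) and Casp14 by -0.47 (SE 0.09, adjusted p = 0.000131). TGF-beta and mesenchymal genes were higher in 17 of 20 (11 without mouse 32), invasion genes in 13 of 17 (13) and interferon genes in 11 of 13 (9). Timp1 changed by 0.49 (SE 0.05, adjusted p = 7.69e-07), Irf7 by 0.39 (SE 0.05) and Inhba by 0.27 (SE 0.04). Basal and hemidesmosome genes were higher in 8 of 13 and MHC genes in 7 of 12 (6 and 0 without mouse 32). Mitosis and replication genes had 1 of 23 lower (Mcm5, -0.09) and 0 higher, at a median slope of -0.01.

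Most fibroblast and macrophage markers had positive slopes on Krt8 in these pairs. Their list means followed Krt8 in fewer mice than the mean of all tested genes, which did so in 22 of 31. Fibroblast and matrix genes were higher in 18 of 19 members (14 without mouse 32), with a median slope of 0.19, and their mean was higher in the papilloma of higher Krt8 in 17 of 31 mice. Macrophage and Langerhans cell genes were higher in 13 of 16 (12), with a median of 0.29, in 19 of 31 mice for the list mean. T and NK cell genes had 1 of 11 higher, Thy1, which fibroblasts also make, a share below that of all tested genes. The part of these cells in the slopes of the matrix, protease and barrier genes was not tested.

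**Figure D5:**
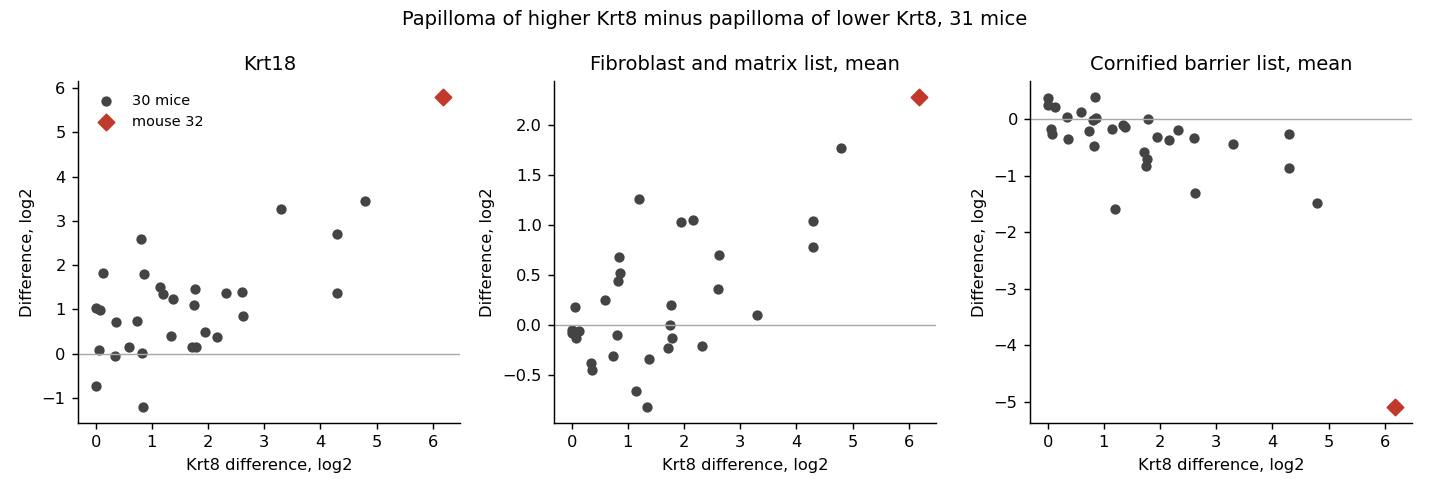
Difference between the papilloma of higher Krt8 and that of lower Krt8 in each of 31 mice, plotted against the Krt8 difference (all log2), for Krt18, the mean of the fibroblast and matrix list and the mean of the cornified barrier list. Krt18 is above 0 in 28 mice, the fibroblast mean in 17 and the barrier mean below 0 in 23; mouse 32 (diamond) lies farthest to the right in each panel.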

How the data were processed

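Log2 values of 45101 probesets (Affymetrix mouse arrays) were used as deposited. The authors made them by RMA, per the labels' processing notes, which corrects background, normalizes arrays by quantiles and summarizes probes; its version is not given in the sources used here.

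Values of papillomas from one mouse were averaged and n counts mice. Mice 23 and 35 of the Krt8-high and mice 19 and 21 of the Krt8-low group had 1 papilloma each and weighed the same as the others. Tested probesets had 1 gene symbol in the array annotation and lay above their array's median in at least 11 of 68 arrays (21581 probesets, 12605 genes). The 3 Krt8 probesets set the groups and were tested only where groups came from the other papilloma. Group differences and slopes were fitted on log2 values with limma (version 3.58.1, run in R version 4.3.3). P-values were adjusted by Benjamini and Hochberg over every tested probeset, at a threshold of 0.05. Traits were compared by permutation (100000 resamples) or Fisher's exact test. Genes were named by rule: the 20 of largest difference in each direction among those called, 10 of highest and 5 of lowest correlation with Krt8, up to 4 members per list and genes the paper names for papillomas; 1 probeset stood for a gene, that of highest mean. Members, gene lists and rules were chosen with earlier results of these data known. Nothing in the labels says how tumors of one mouse were sampled. In comparisons between mice the p-values measure the spread between these mice. In the slope between papillomas they measure the spread between papillomas inside these mice. Both fits were also run on simulated data, in which probesets varied independently and sex, coat and class had no effect. That run cannot show how the fits behave under the uneven traits of the real groups. The number of mice limits the precision. Alternatives covered the filter, group size, the Krt8 probeset, covariates, start cohort, scaling and single mice.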

Additional observations from a re-analysis of the deposited data

Results flagged for a closer look

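Among 33 sets of 6, 9 or 10 samples examined, 5 held a sample far from the others by Dixon's test, which chance does in about 1 of 20 sets. Krt7 in one Krt8-low male stood at 9.96, with the next of the 10 males at 7.02, and Krt19 of a Krt8-low male at 6.06, with the next at 5.04. In papilloma 2 of the 10 mice that were low by papilloma 1, Krt7 reached 11.3 in one tumor, the next being at 8.16, and Krt19 reached 7.17, the next being at 5.56. Casp14 of one Krt8-high female, mouse 32, was 7.26, while the next of the 9 females was at 9.67.

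Sprr3, a small proline-rich envelope precursor, had the 1 probeset of 21578 that passed the test of whether the Krt8 difference is the same in females and males, an interaction term in limma (1368 at an unadjusted p under 0.05). Krt8-high females had 12.5 to 14.1 and the 2 Krt8-low females 8.40 and 10.2, whereas Krt8-high males had 12.9 to 13.9 and Krt8-low males 12.5 to 14.2. The interaction was 3.83 (adjusted p = 0.0293) and rests on 2 Krt8-low females, of which mouse 15 has a doubtful sex label.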

How the results depend on the processing

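Of the 892 probesets higher and 728 lower, the counts were 207 and 96 with the highest 9 against the lowest 9 mice, 1991 and 1510 with 15 against 15, 2498 and 1776 by slope over 37 mice, 74 and 19 with sex as covariate, 1509 and 1181 with start cohort as block, 486 and 407 with arrays and the mouse as random block, and 782 and 1152 after centring of arrays. Both counts were 0 with class, with sex and coat, and with the mice of uncertain sex left out. They were also 0 with sex, coat and class (1850 at an unadjusted p under 0.05). In mice labelled female they were 15 and 0, and in mice labelled male 0 and 0 (2358 and 2075 at an unadjusted p under 0.05). Leaving out 1 mouse gave 525 to 1328 and 374 to 1151; mice 13, 15, 21, 29 and 35 each lowered both counts by over 1.5 times (to 547, 545, 592, 550 and 525 higher), and without mice 3 and 27 the lower count was 1151 and 1128. Without mouse 32 the slope between papillomas called 2470 and 1708. The cause of these changes was not tested. Of 90 named genes that passed, 77 passed with no filter on low values, 22 with sex as covariate and 66 without any one mouse. Under the alternatives above their direction was kept with 1 exception: Eif2s3y, 0.00614 in males. The groups set on one papilloma and compared in the other are not among these alternatives. There the cornified barrier list had a median of -0.51, and of 0.42 with the papillomas exchanged. Jchain, at -0.01 between groups, changed by 0.42 between papillomas. No trait passed in groups of 9 or 15. The time to the first papilloma differed by -0.38 weeks and the share with a carcinoma by 0 in groups of 9. In the 6 start cohorts that held both groups the mean within-cohort difference had the main direction for all 90 genes. No paired analysis was possible because no mouse is in both groups, and replicate numbers only name samples here; papillomas of 1 mouse were paired only in the slope on Krt8. The arrays' signal over background limits genes near a level of 5.23.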
